A study of Mus musculus with 51 samples.

Results

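Fmo1, Nnmt, Dpep1, Adam10, Tmem119, Rhoj, Ap4e1 and Tdpoz8 were the 8 genes, of 19938 measured, whose signal changed differently in 2 fetal liver stromal lines when hematopoietic progenitors were grown on them. They were chosen on the sorted arrays themselves: in a limma fit, the difference between the lines in the change with KLS cells had a Benjamini-Hochberg adjusted p under 0.05 for these 8 genes alone, 0.0401% of those tested, and with the replicate number as a block for none. KLS cells are bone marrow cells that carry c-Kit and Sca-1 and lack lineage markers, a population rich in hematopoietic stem and progenitor cells. All values of the 8 genes in the sorted arrays are therefore given as a description, with no test, and tests are given for the confluent cultures only. Each gene had 1 probe set that named it and no other gene, and Tdpoz8 was also named by 1 probe set shared with another gene.

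The series measured RNA of cultured mouse stromal lines on Affymetrix mouse gene 1.0 ST arrays, in 17 groups of 3 arrays. The sorted groups were AFT024+KLS, AFT024-KLS, BFC012+KLS and BFC012-KLS: stroma of the lines AFT024, labelled supportive of hematopoietic stem and progenitor cells, and BFC012, labelled non-supportive, both cloned from C57BL/6 fetal liver (FL) at embryonic day 14.5. They were grown with or without bone marrow KLS cells for 4 days, and the stroma was then purified by its lack of CD45, the common leukocyte antigen, in cultures with and without KLS cells alike. The other 39 arrays came from 13 lines grown to confluence without KLS cells and without sorting, and each line other than OP9 is labelled a clone. The FL lines AFT024 and 2012 (supportive) and BFC012, AFT011 and BFC (non-supportive) came from C57BL/6 embryos at embryonic day 14.5. The region of the embryo where aorta, gonads and mesonephros form (AGM) gave 4 lines at embryonic day 11, from (CBAxC57BL/10)F1 mice: UG26.3B5 is labelled less-supportive, and AM30-3F4, AM14-1C4 and UG26.1B6 are labelled supportive. Adult bone marrow (BM) gave BMC9 (supportive) and BMC10 (less-supportive), of the background H2ts6, and 14F1-1 (supportive), of BALB/c. OP9 (supportive) came from fetal calvaria of (C57BL/6xC3H)F2-op/op mice. Confluent cultures were kept at 33 °C, except those of 14F1-1 and of OP9 replicates 1 and 2, at 37 °C. For the sorted groups the labels used here give no temperature. Only the replicate numbers tell arrays of a group apart in the labels, so p-values measure the spread between arrays, which may be technical. For the confluent cultures this spread is pooled for each gene over all 13 lines. A gene thus has the same standard error (SE) in every pair, whatever the spread of that pair's own arrays. In the sorted arrays it is likewise pooled over the 4 groups.

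The deposited values are log2 signals, on which a difference of 1 is a 2-fold change in signal. By their values, the arrays fell into 4 sets of nearly equal distribution within each, taken here as normalized apart: the 12 sorted arrays, 18 confluent arrays that include AFT024 and BFC012, the 6 of OP9 and BFC, and 15 others. Array medians ranged from 5.65 to 5.76 in the sorted set and from 6.82 to 6.95 in the set with confluent AFT024 and BFC012, so levels are set side by side only within a set. Across genes, replicate 1 correlated with the other arrays of its group at a mean of 0.977 in AFT024+KLS, 0.976 in AFT024-KLS and 0.972 in BFC012-KLS, against 0.984 to 0.986 for replicates 2 and 3 there. BFC012+KLS had 0.993 for all 3 replicates. Differences of the 8 genes between the sorted groups are for this reason also given without replicate 1 of all 4 groups.

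The stromal label was checked against markers. Vim, the intermediate filament of mesenchymal cells, lay above the 99th percentile of all genes in the 4 sorted groups. A list of 12 mesenchymal genes averaged 8.01 to 8.23 over the arrays of AFT024+KLS and 7.44 to 8.35 over those of AFT024-KLS. The averages were 7.96 to 8.30 in BFC012+KLS and 7.13 to 8.40 in BFC012-KLS, and the low ends of both groups without KLS cells were replicate 1. Not every gene of the list was as bright as Vim. Col1a2, a collagen gene, averaged 6.74 in AFT024+KLS, 6.68 in AFT024-KLS, 5.95 in BFC012+KLS and 6.01 in BFC012-KLS. The median over all genes of the sorted set was 5.88. Among 20 hematopoietic genes, 0 passed limma's test in either line's comparison with and without KLS cells (1 in AFT024 and 2 in BFC012 at an unadjusted p under 0.05). Their mean was 4.63 to 4.72 in AFT024+KLS and 4.58 to 4.62 in AFT024-KLS, and 4.63 to 4.82 in BFC012+KLS and 4.66 to 4.68 in BFC012-KLS. Ptprc, which encodes CD45, lay at the 20.7th and 19.8th percentile in AFT024+KLS and BFC012+KLS, and at the 19.3rd and 19.1st in AFT024-KLS and BFC012-KLS. The cells were sorted against CD45 itself. Lyz2 of the same list averaged 4.32 in AFT024+KLS and 3.98 in AFT024-KLS, and 4.73 in BFC012+KLS and 3.91 in BFC012-KLS. With KLS cells, 16 of the 20 genes were higher in AFT024, where the list means did not overlap, and 12 in BFC012. Of 10 mesothelial and epithelial genes, 0 passed in either line (0 in AFT024 and 3 in BFC012 unadjusted), with means of 5.28 to 5.54 in AFT024+KLS and 5.35 to 5.45 in AFT024-KLS, and of 5.85 to 6.19 in BFC012+KLS and 6.18 to 6.31 in BFC012-KLS. Of 8 hepatocyte genes measured, 1 passed: Ahsg, the plasma glycoprotein fetuin-A, averaged 4.94 in BFC012+KLS and 4.30 in BFC012-KLS, 0.65 higher (limma adjusted p = 0.0363). The part of these markers in the results below was not tested.

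Stromal cells of fetal liver, bone marrow and the AGM feed, hold and instruct hematopoietic cells through secreted factors, adhesion molecules and membrane-bound ligands, and contact with blood cells can in turn change what stroma expresses. The 8 genes serve different functions. Fmo1, Nnmt and Dpep1 encode enzymes of small-molecule and peptide metabolism, Adam10 encodes a protease of the cell surface, Tmem119 a membrane protein of bone-forming cells, Rhoj a small GTPase, Ap4e1 a subunit of a vesicle coat and Tdpoz8 a protein of a family of ubiquitin ligase adaptors. In mouse, Tmem119 is also widely used as a marker of microglia, the macrophages of the brain.

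Fmo1, a flavin-containing monooxygenase that oxidises nitrogen and sulfur atoms of drugs and other small molecules in the endoplasmic reticulum, lies on chr1:162829561-162866610 (GRCm38.p6, as for all genes below). Fmo1 measured 6.25, 5.24 and 5.66 in AFT024+KLS (replicates 1, 2 and 3), against 5.49, 5.61 and 5.39 in AFT024-KLS. In BFC012+KLS, Fmo1 measured 9.60, 8.81 and 8.79, against 5.28, 5.96 and 6.09 in BFC012-KLS. The 3 arrays of BFC012+KLS stood far above the other 9, and the AFT024 groups overlapped. The difference with KLS cells was 0.22 ± 0.29 (SE) in AFT024 and 3.29 ± 0.29 in BFC012, where it is 9.76-fold. Without replicate 1 the differences were -0.05 and 2.77, so the BFC012 value was smaller and the AFT024 value lay just below 0. In these bulk samples, fewer cells of a type and less RNA per cell cannot be told apart.

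Nnmt, nicotinamide N-methyltransferase, transfers a methyl group from S-adenosylmethionine to nicotinamide and lies on chr9:48538002-48607655. Nnmt measured 7.55, 7.87 and 7.86 in AFT024+KLS, against 7.06, 7.10 and 7.30 in AFT024-KLS. With KLS cells BFC012 gave 9.21, 9.41 and 9.36 for Nnmt, against 7.14, 7.58 and 7.28 without. Nnmt was the 1 gene of the 8 that was higher with KLS cells in both lines without overlap and by over 1.5-fold in each, and BFC012+KLS was again the highest group. The difference with KLS cells was 0.60 ± 0.13 (SE), or 1.52-fold, in AFT024 and 1.99 ± 0.13, or 3.98-fold, in BFC012 (0.66 and 1.95 without replicate 1).

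Dpep1, a dipeptidase anchored to the outer cell membrane that cleaves cysteinyl-glycine and turns leukotriene D4 into leukotriene E4, lies on chr8:123186235-123201812. Dpep1 measured 6.51, 6.80 and 6.54 in AFT024+KLS, against 5.22, 4.98 and 4.96 in AFT024-KLS. The values of Dpep1 in BFC012+KLS were 5.43, 5.49 and 5.45, against 5.08, 5.01 and 5.20 in BFC012-KLS. Both lines were higher with KLS cells without overlap, and the step was much taller in AFT024. The differences were 1.56 ± 0.10 (SE), or 2.95-fold, in AFT024 and 0.36 ± 0.10, or 1.29-fold, in BFC012 (1.70 and 0.37 without replicate 1).

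Adam10, the membrane metalloprotease that sheds the outer parts of Notch receptors, cadherins, chemokines and other surface proteins, lies on chr9:70678944-70780229. Adam10 measured 8.19, 8.24 and 8.11 in AFT024+KLS, against 8.25, 8.51 and 8.52 in AFT024-KLS. For BFC012+KLS the Adam10 values were 10.04, 10.04 and 9.85, against 9.16, 9.28 and 9.23 in BFC012-KLS. All arrays of AFT024 lay below all arrays of BFC012, and in AFT024 the arrays with KLS cells were the lower ones. The differences were -0.25 ± 0.09 (SE) in AFT024 and 0.75 ± 0.09, or 1.68-fold, in BFC012 (-0.34 and 0.69 without replicate 1). The gap that separates the AFT024 groups was narrow, since replicate 1 of AFT024-KLS at 8.25 stood just above replicate 2 of AFT024+KLS at 8.24.

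Tmem119, a single-pass membrane protein that takes part in osteoblast differentiation in mouse, lies on chr5:113793729-113800396. Tmem119 measured 7.62, 7.55 and 7.51 in AFT024+KLS, against 7.61, 7.64 and 7.50 in AFT024-KLS. In BFC012+KLS it reached 8.79, 8.92 and 8.52, against 6.83, 7.06 and 7.40 in BFC012-KLS. The AFT024 arrays formed 1 narrow band, with BFC012+KLS above it and BFC012-KLS below it. The differences were -0.02 ± 0.14 (SE) in AFT024 and 1.65 ± 0.14, or 3.14-fold, in BFC012 (-0.04 and 1.49 without replicate 1). Of 11 macrophage and microglia genes measured, 0 passed limma's test in either line (1 in each unadjusted), with means of 5.15 to 5.23 in AFT024+KLS and 5.003 to 5.19 in AFT024-KLS, and 5.03 to 5.17 in BFC012+KLS and 5.06 to 5.13 in BFC012-KLS. The microglial receptor P2ry12 lay at the 15.4th and 16.5th percentile in AFT024+KLS and BFC012+KLS, against the 16.0th and 16.7th in AFT024-KLS and BFC012-KLS. Cd68 of the same list was higher with KLS cells. It averaged 8.11 in AFT024+KLS and 7.01 in AFT024-KLS, and 6.92 in BFC012+KLS and 6.56 in BFC012-KLS. With KLS cells, 3 of the 11 genes were higher in AFT024 and 5 in BFC012.

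Rhoj, a small GTPase close to Cdc42 that acts on the actin cytoskeleton and is best known from endothelial cells, lies on chr12:75308313-75401455. Rhoj measured 9.05, 8.50 and 8.42 in AFT024+KLS, against 7.49, 7.26 and 7.25 in AFT024-KLS. BFC012+KLS had Rhoj values of 6.39, 6.55 and 6.54, against 7.23, 7.73 and 7.68 in BFC012-KLS. The 4 groups thus ran in a clear order, AFT024+KLS on top and BFC012+KLS at the bottom, with both groups without KLS cells between them. The differences were 1.32 ± 0.17 (SE), or 2.50-fold, in AFT024 and -1.05 ± 0.17 in BFC012, where the signal was 2.07-fold lower with KLS cells (1.20 and -1.16 without replicate 1). Of 10 endothelial genes, 0 passed limma's test in either line, also unadjusted, and their mean was 4.78 to 4.83 in AFT024+KLS and 4.74 to 4.86 in AFT024-KLS, and 4.84 to 4.92 in BFC012+KLS and 4.78 to 4.87 in BFC012-KLS.

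Ap4e1, the epsilon subunit of the adaptor complex AP-4, which sorts cargo into vesicles at the trans-Golgi network, lies on chr2:127008679-127069814. Ap4e1 measured 6.90, 6.67 and 6.60 in AFT024+KLS, against 6.94, 6.84 and 7.06 in AFT024-KLS. Its BFC012+KLS values were 8.09, 8.18 and 8.003, against 7.12, 7.28 and 7.25 in BFC012-KLS. The replicates were tight and BFC012+KLS stood apart, while the AFT024 groups overlapped by 1 array. The differences were -0.22 ± 0.10 (SE) in AFT024 and 0.88 ± 0.10, or 1.84-fold, in BFC012 (-0.32 and 0.83 without replicate 1).

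Tdpoz8 belongs to a family of proteins with TRAF (TD) and POZ domains, related to Spop, the substrate adaptor of a cullin ubiquitin ligase, and lies on chr3:93068823-93075505. Tdpoz8 measured 3.15, 3.30 and 3.06 in AFT024+KLS, against 3.40, 3.17 and 3.44 in AFT024-KLS. BFC012+KLS gave Tdpoz8 signals of 4.45, 4.85 and 4.73, against 3.52, 3.40 and 3.72 in BFC012-KLS. The BFC012+KLS arrays were the highest, yet every group was dim. The differences were -0.17 ± 0.13 (SE) in AFT024 and 1.13 ± 0.13 in BFC012 (-0.12 and 1.23 without replicate 1). No fold is given, since the values carry no detection call that would show these signals to be above background. Tdpoz8 lay at the 4.2nd percentile of all genes in AFT024+KLS and the 6.1st in AFT024-KLS, and at the 25.4th in BFC012+KLS and the 8.1st in BFC012-KLS. The shared probe set that also names Tdpoz8 averaged 3.73 ± 0.07 (SD) in AFT024+KLS and 3.79 ± 0.09 in AFT024-KLS. It averaged 4.39 ± 0.27 in BFC012+KLS and 3.79 ± 0.14 in BFC012-KLS, so it too was highest in BFC012+KLS. Genes of this family are near-identical copies, and their signals are uncertain for that reason.

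**Figure D1:**
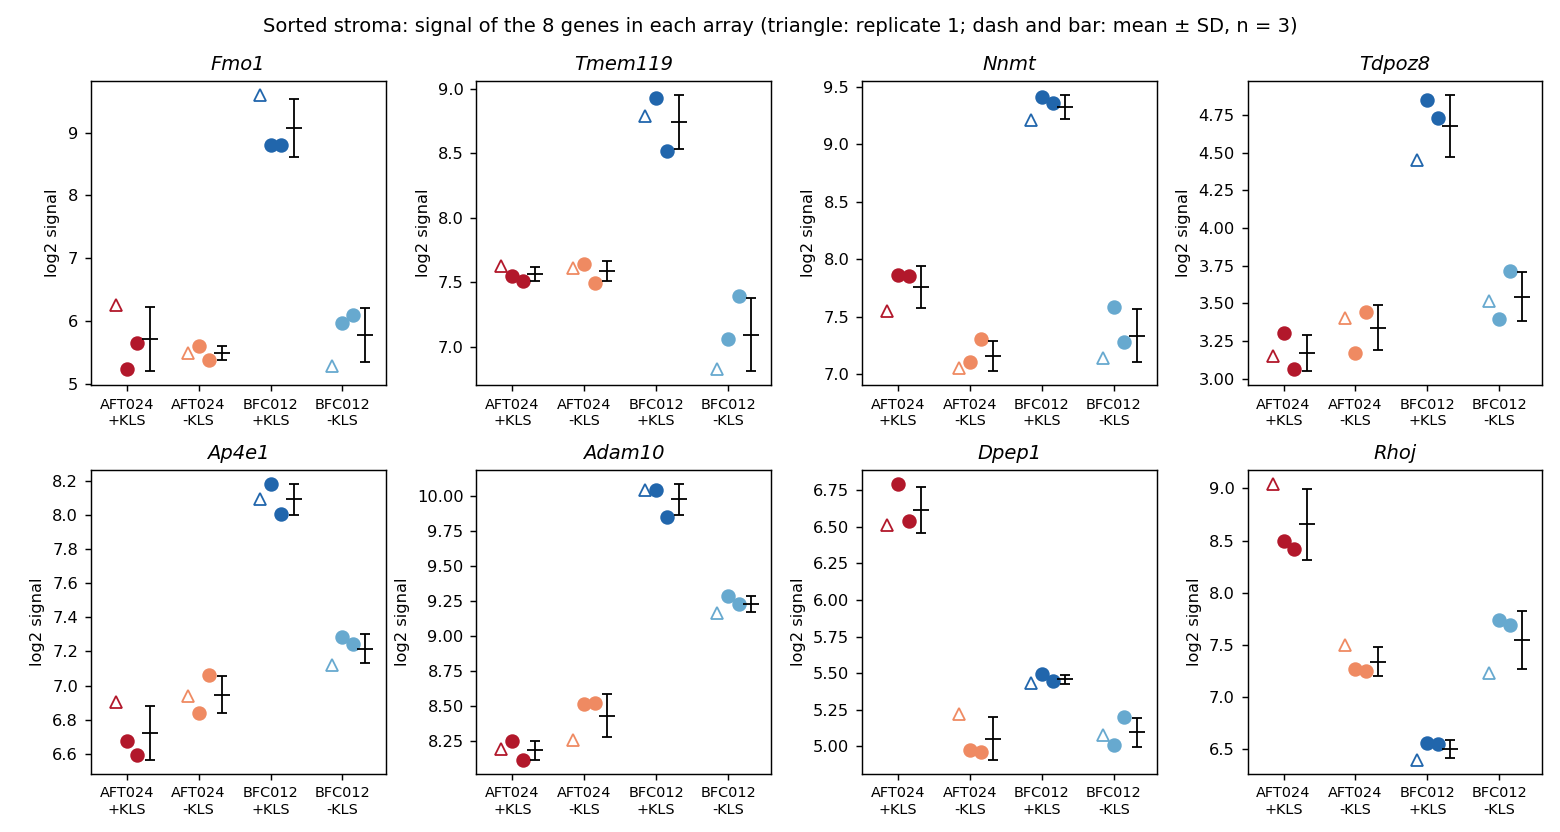
Log2 signal of the 8 genes in each sorted array, for AFT024 and BFC012 with (+KLS) and without (-KLS) KLS cells; triangles are replicate 1, and the dash and bar are the mean ± SD over 3 arrays. In 6 panels BFC012+KLS is the highest group, and in those of Dpep1 and Rhoj AFT024+KLS is.

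Across the 8 genes, the arrays with and without KLS cells did not overlap for 4 genes in AFT024 (Nnmt, Dpep1 and Rhoj higher, Adam10 lower) and for all 8 in BFC012 (7 higher, Rhoj lower). The same lack of overlap was found in 14.5% of all genes in AFT024 (8.07% higher, 6.39% lower) and 17.3% in BFC012 (7.8% higher, 9.46% lower). Adam10 and Rhoj separated in opposite directions in the lines, as did 0.863% of all genes. Since the genes were chosen on these arrays, nothing is read from these counts. The median difference over the 8 genes was 0.10 in AFT024 and 1.01 in BFC012, beside 0.01 and -0.02 over all genes.

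The difference between the lines in the change with KLS cells, AFT024 minus BFC012, was -3.07 ± 0.41 (SE) for Fmo1, -1.67 ± 0.20 for Tmem119 and -1.39 ± 0.19 for Nnmt. It was -1.30 ± 0.18 for Tdpoz8, -1.10 ± 0.14 for Ap4e1 and -0.999 ± 0.13 for Adam10. Dpep1 at 1.20 ± 0.15 and Rhoj at 2.37 ± 0.25 had the positive sign, a stronger change upward in AFT024. By size, Fmo1 ranked 3 and Rhoj 8 among all genes, Tmem119 26, Nnmt 61, Tdpoz8 79, Dpep1 99, Ap4e1 123 and Adam10 188. The 8 were thus not the 8 largest differences: 0.938% of all genes had a difference of at least 1 in size. Without replicate 1 the differences were -2.83 for Fmo1, -1.53 for Tmem119, -1.29 for Nnmt, -1.36 for Tdpoz8, -1.15 for Ap4e1, -1.03 for Adam10, 1.33 for Dpep1 and 2.36 for Rhoj. All 8 kept their sign, and those of Fmo1, Tmem119, Nnmt and Rhoj were smaller in size. The ranks were then 6 for Fmo1, 12 for Rhoj, 68 for Tmem119 and 128 for Nnmt. Those of Tdpoz8, Dpep1, Ap4e1 and Adam10 were 109, 116, 173 and 253, and 1.43% of all genes reached a size of 1.

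How many genes passed the choice depended on the arrays. Without replicate 1 of all 4 groups 589 genes had an adjusted p under 0.05 (2.95%), the 8 among them, and without replicate 2 or without replicate 3 none had (809 and 737 at an unadjusted p under 0.05, against 1565 with all arrays). With the replicate number as a block, 0 genes passed (1782 unadjusted). Same-numbered arrays of AFT024-KLS and BFC012-KLS deviated together, with correlations of 0.671, 0.517 and 0.466. Arrays of unlike number in these groups did so too, at up to 0.501, above the value of replicate 3. Between same-numbered arrays with and without KLS cells the correlations were -0.026, 0.037 and -0.101 in AFT024. In BFC012 they were weak, at 0.083, 0.069 and 0.135, but above those of unlike numbers, at most -0.001. Leaving out single arrays left 0 to 46 genes past the threshold. The count was 0 without replicate 2 of any of the 4 groups or replicate 3 of AFT024-KLS, 1 to 3 without replicate 3 of another group, and 46, 33, 16 and 12 without replicate 1 of BFC012-KLS, AFT024+KLS, AFT024-KLS and BFC012+KLS. Among those 46, 33, 16 and 12 genes were 8, 8, 7 and 6 of the 8. Where replicate 3 of BFC012-KLS, AFT024+KLS or BFC012+KLS was left out, 1, 1 and 2 of the 8 passed. Just inside the threshold were Fmo1 and Tdpoz8, and just outside it were Slc12a2 at -2.15 ± 0.31, Atp10a at -1.07 ± 0.16 and Timp4 at -3.30 ± 0.49 (AFT024 minus BFC012, SE). Timp4, an inhibitor of metalloproteases, and Slc12a2, a sodium, potassium and chloride cotransporter, thus differed by more than most of the genes inside; the genes just outside were named after their values were seen.

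**Figure D2:**
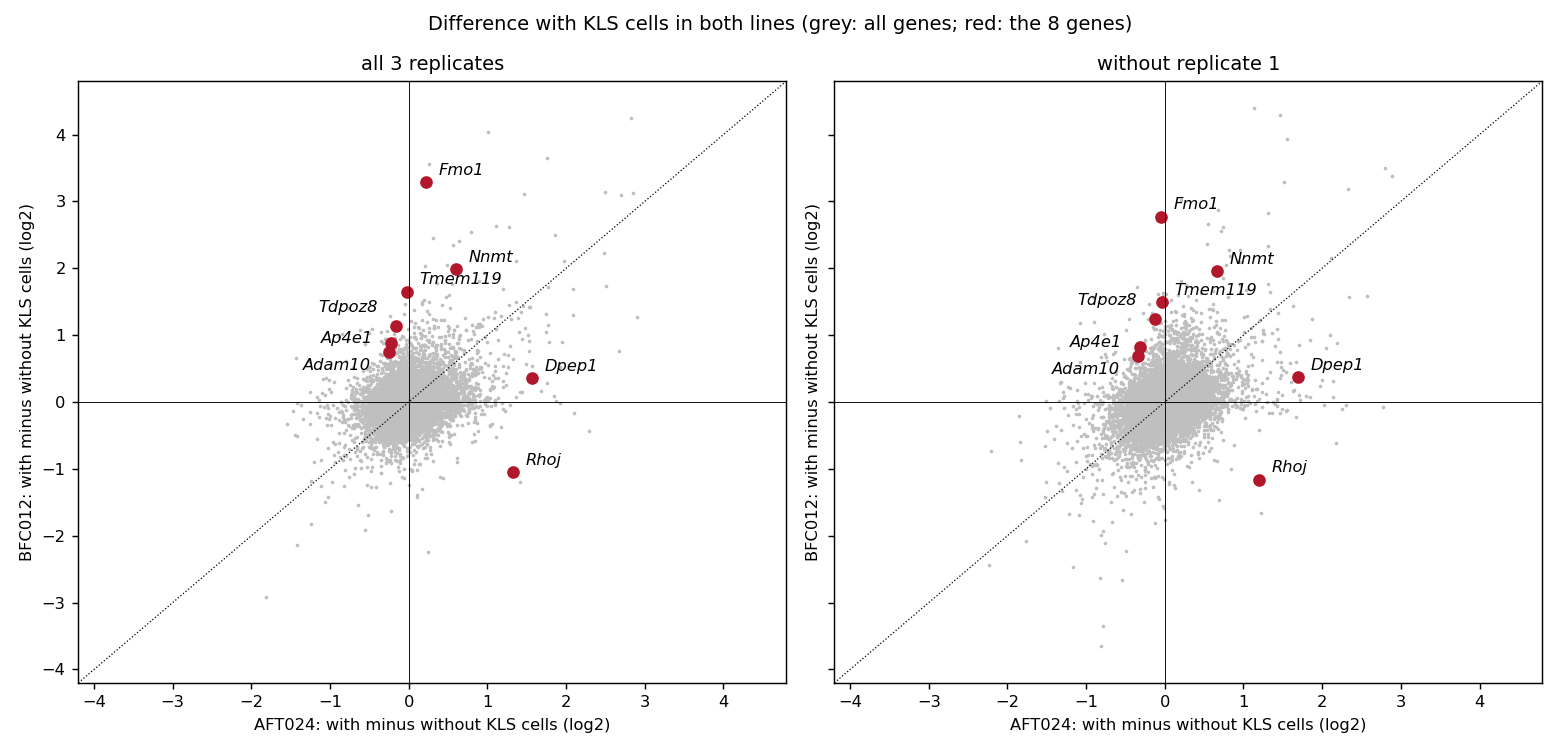
Log2 difference with minus without KLS cells in AFT024 (horizontal) and BFC012 (vertical) for all genes (grey) and the 8 genes (red), over 3 replicates on the left and without replicate 1 on the right; the dotted line marks equal differences. Fmo1, Nnmt, Tmem119, Tdpoz8, Ap4e1 and Adam10 lie above the dotted line, and Dpep1 and Rhoj lie below it, in both panels.

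The levels of the 8 genes in the sorted lines were also set side by side, without and with KLS cells. In AFT024-KLS minus BFC012-KLS, Tmem119 was 0.49, Ap4e1 -0.27 and Adam10 -0.80, each without overlap between the lines. Fmo1 at -0.28, Tdpoz8 at -0.21, Rhoj at -0.21, Nnmt at -0.18 and Dpep1 at -0.04 overlapped. With KLS cells, all 8 genes separated the lines: the AFT024+KLS minus BFC012+KLS differences were -3.35 for Fmo1, -1.79 for Adam10, -1.57 for Nnmt, -1.51 for Tdpoz8, -1.37 for Ap4e1 and -1.18 for Tmem119. They were 1.16 for Dpep1 and 2.16 for Rhoj. Tmem119 was higher in AFT024 than in BFC012 without KLS cells and lower in AFT024 than in BFC012 with them. Rhoj and Dpep1 were the ones higher in AFT024 with them. Without replicate 1, the differences without KLS cells were 0.34 for Tmem119, -0.31 for Ap4e1, -0.74 for Adam10, -0.53 for Fmo1, -0.25 for Tdpoz8, -0.45 for Rhoj, -0.23 for Nnmt and -0.13 for Dpep1. Those with KLS cells were -3.35 for Fmo1, -1.77 for Adam10, -1.52 for Nnmt, -1.61 for Tdpoz8, -1.46 for Ap4e1, -1.19 for Tmem119, 1.20 for Dpep1 and 1.91 for Rhoj. Every sign was kept, and Fmo1 and Rhoj were further below BFC012 in AFT024 without KLS cells. Over all genes, the lines did not overlap in 32.1% with KLS cells and in 25.2% without. The 8 genes were chosen on these arrays, so nothing is read from how many of them separated the lines.

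Genes related to the 8 were set beside them from lists of their families and pathways. Fmo2, another flavin-containing monooxygenase, measured 4.69, 3.67 and 3.91 in AFT024+KLS, against 3.67, 3.78 and 3.73 in AFT024-KLS. Fmo2 measured 4.92, 5.38 and 5.57 in BFC012+KLS, against 3.85, 4.33 and 4.35 in BFC012-KLS. The BFC012 groups did not overlap, but the difference of 1.11 did not pass limma's test (adjusted p = 0.0812). Without replicate 1, in a comparison added after the data were seen, it was 1.14 ± 0.11 (SE) with an adjusted p of 0.000186, and the difference between the lines was -1.10 with an adjusted p of 0.00612. Of the 4 flavin monooxygenases measured beside Fmo1, 0 passed in either line or for the difference between lines with all replicates, where 0.351% of all genes passed in AFT024 and 0.883% in BFC012. At an unadjusted p under 0.05 they were 0 in AFT024 and 3 in BFC012. All values without replicate 1 for genes beside the 8 were likewise added after the data were seen. In that setting 1208 of all 19938 genes passed in AFT024 and 1576 in BFC012. For the difference between the lines 589 (2.95%) passed.

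The other subunits of AP-4 did not follow Ap4e1 by limma's test. The beta subunit Ap4b1 differed with KLS cells by 0.02 in AFT024 and -0.26 in BFC012, the mu subunit Ap4m1 by 0.01 and -0.01, and the small subunit Ap4s1 by 0.19 and -0.09. All had an adjusted p of 0.731 or more, and 0 of 24 adaptor genes passed in either line (3 in AFT024 and 1 in BFC012 unadjusted). Of the 6 measured Tdpoz and Spop genes 0 passed, also unadjusted, and Tdpoz1, Tdpoz2 and Tdpoz3 differed by -0.08, 0.05 and 0.11 in BFC012.

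Among 18 partners of ADAM10 and other ADAM proteases, 1 passed in AFT024 and 3 in BFC012. Adam12, a protease of differentiating mesenchyme, rose with KLS cells in both lines, by 1.74 ± 0.20 (SE, adjusted p = 0.00433) in AFT024 and 1.05 ± 0.20 (adjusted p = 0.0409) in BFC012. Timp3, a matrix-bound inhibitor of ADAM and matrix proteases, fell by 1.21 in BFC012 (adjusted p = 0.0308). Tspan5, a tetraspanin that carries ADAM10 to the cell surface, fell by 0.87 in BFC012 (adjusted p = 0.0483), where Adam10 itself was higher. Without replicate 1 these differences were 1.71 in AFT024 and 0.85 in BFC012 for Adam12, and in BFC012 -1.25 for Timp3 and -1.02 for Tspan5. For the difference between the lines 0 of the 18 passed (5 unadjusted). Of 23 ADAM10 substrates 0 passed in either line (3 in AFT024 and 1 in BFC012 unadjusted). Jag1, a Notch ligand, differed by -0.78 in BFC012 (adjusted p = 0.644), and by -1.56 without replicate 1 (adjusted p = 3.28e-05). Without replicate 1, Efna5 at -0.80 and Mertk at 1.01 also passed in BFC012 (adjusted p = 0.00272 and 0.024), as did Alcam at -0.81 and Cx3cl1 at -0.60 in AFT024 (adjusted p = 0.0159 and 0.0206). In that setting 1 of the 23 substrates passed as higher and 2 as lower in BFC012, and 2 as lower in AFT024. Of all 19938 genes, 1576 passed there in BFC012 and 1208 in AFT024.

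Of 18 genes of dipeptidase, glutathione and leukotriene metabolism, 1 passed in each line. Gclc, the catalytic subunit of the enzyme that starts glutathione synthesis, rose by 2.08 ± 0.18 (SE, adjusted p = 0.000577) in AFT024 and by 1.69 ± 0.18 (adjusted p = 0.000989) in BFC012, and the difference between lines of 0.39 did not pass (adjusted p = 0.784). Without replicate 1 Gclc was 2.34 higher in AFT024 and 1.56 higher in BFC012, and the difference between lines of 0.78 passed (adjusted p = 0.0404). The dipeptidases Dpep2 and Dpep3 differed by -0.08 and -0.16 in AFT024, where Dpep1 was 1.56 higher, and passed in neither line. Of 21 genes of nicotinamide and methyl-donor metabolism 0 passed (3 in each line unadjusted), and of 16 osteoblast genes 0 passed (4 in AFT024 and 0 in BFC012 unadjusted). Nampt, which makes nicotinamide mononucleotide from nicotinamide, differed by 1.57 in AFT024 (adjusted p = 0.0928) and 0.54 in BFC012 (adjusted p = 0.66). Without replicate 1, Nampt was 1.13 higher in AFT024 (adjusted p = 0.00258) and 0.97 higher in BFC012 (adjusted p = 0.00405).

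RefSeq promoter sequences (GRCm38.p6) were held for 5 of the 8 genes, and those of Ap4e1 and Adam10, higher with KLS cells in BFC012, and of Dpep1 and Rhoj, higher in AFT024, are shown up to the annotated gene start, for a reader to set side by side. They lie on the plus strand at chr2:127008461-127008678, chr9:70678732-70678943, chr8:123185985-123186234 and chr12:75308063-75308312, and capitals mark matches to the motifs listed after them.
Ap4e1: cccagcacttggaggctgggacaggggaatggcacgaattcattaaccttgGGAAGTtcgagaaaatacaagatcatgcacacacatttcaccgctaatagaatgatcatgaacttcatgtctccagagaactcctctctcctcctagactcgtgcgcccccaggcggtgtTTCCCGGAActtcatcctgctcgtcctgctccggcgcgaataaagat
Adam10: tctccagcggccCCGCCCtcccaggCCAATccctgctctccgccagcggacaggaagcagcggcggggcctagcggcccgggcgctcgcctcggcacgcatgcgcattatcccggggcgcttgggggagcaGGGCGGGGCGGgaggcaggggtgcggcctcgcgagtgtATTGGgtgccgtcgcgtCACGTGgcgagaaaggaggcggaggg
Dpep1: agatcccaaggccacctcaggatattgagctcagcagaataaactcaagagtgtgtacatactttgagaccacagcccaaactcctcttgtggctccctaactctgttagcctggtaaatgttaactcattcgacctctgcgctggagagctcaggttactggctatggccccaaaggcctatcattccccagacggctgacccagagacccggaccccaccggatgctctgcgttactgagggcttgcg
Rhoj: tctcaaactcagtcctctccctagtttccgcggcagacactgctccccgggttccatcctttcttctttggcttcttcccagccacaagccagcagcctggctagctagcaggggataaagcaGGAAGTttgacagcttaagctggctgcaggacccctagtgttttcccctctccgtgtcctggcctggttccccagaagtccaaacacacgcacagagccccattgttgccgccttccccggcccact
The motifs were chosen after the sequences were seen and searched on both strands in the 250 bases before each start, in 32851 promoters in all. The E-box CACGTG occurred in 6.02% of them, the box CCAAT in 33.8% and the ETS motif GGAAGT in 19.7%. The AP-1 motif TGACTCA occurred in 4.46%, the STAT motif TTCNNNGAA in 7.02%, the box TATAAA in 12.4% and the GC box GGGCGG in 32.7%. Adam10 held 3 GC boxes, 2 of them overlapping by 1 base, 2 CCAAT boxes and 1 E-box. Ap4e1 held 1 TTCNNNGAA and 2 GGAAGT, of which 1 lies past the gene start and is not shown, and Rhoj held 1 GGAAGT. Dpep1 held none of these letters in its window. GGAAGT was thus the only one of these motifs found in more than 1 of the 4, in a gene higher in BFC012 and in one higher in AFT024. A match is a run of letters and says nothing here about a factor.

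The confluent cultures, which the choice of the genes did not use, gave the level of each gene in 13 lines without KLS cells. By their position among all genes, Adam10, Tmem119, Rhoj and Nnmt were among the brighter genes of confluent AFT024, at the 87.6th, 90.7th, 86.8th and 85.2nd percentile. Ap4e1 lay at the 55.9th, Fmo1 at the 34.2nd, Dpep1 at the 31.1st and Tdpoz8 at the 9.9th. Confluent BFC012 had the percentiles 96.4 for Adam10, 86.1 for Tmem119, 83.9 for Rhoj and 86.1 for Nnmt. There Ap4e1 lay at 58.9, Fmo1 at 35.2, Dpep1 at 26.5 and Tdpoz8 at 10.0. Fmo1 in BFC012+KLS, at the 93.6th percentile, had its highest position there, against 48.0 in BFC012-KLS. Rhoj in BFC012+KLS, at the 62.7th percentile, was lower than in BFC012-KLS at 79.4. Percentiles across sets are a description, since sorting, culture and normalization all differ between them.

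**Figure D3:**
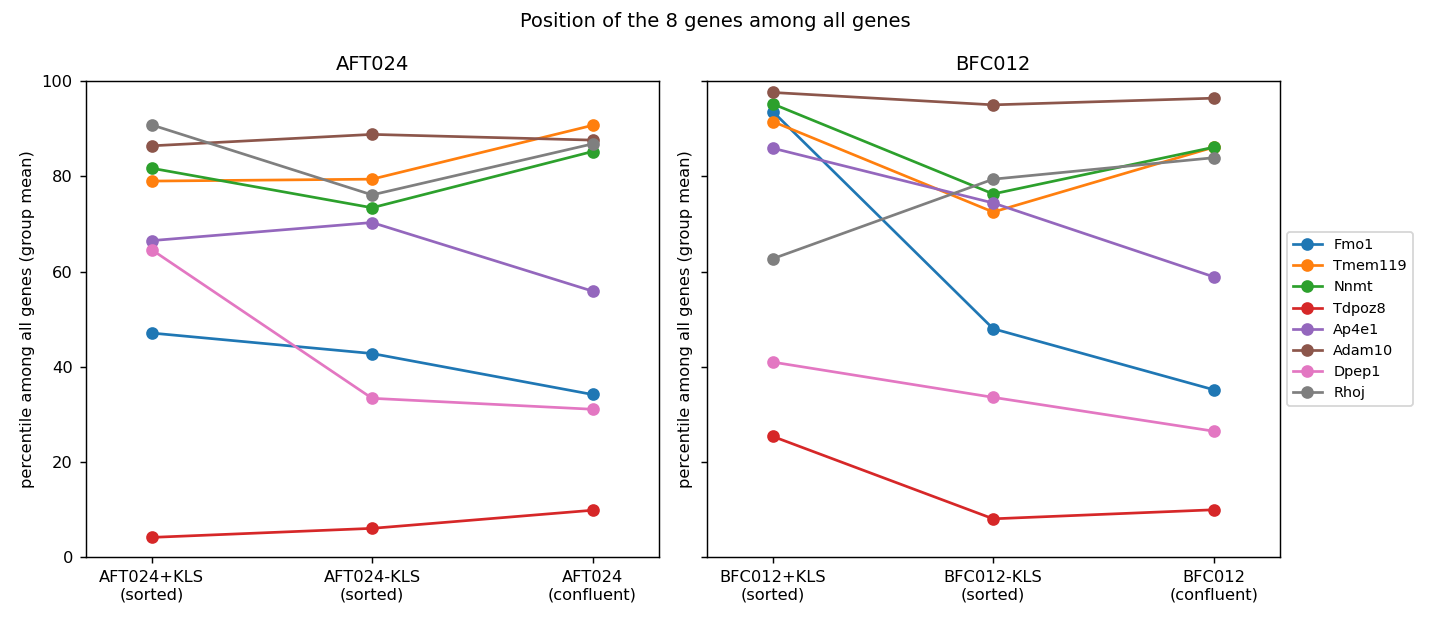
Percentile of the group mean of each of the 8 genes among all genes, for AFT024 (left) and BFC012 (right) sorted with KLS cells, sorted without them and confluent. Fmo1 reaches 93.6 in BFC012+KLS and Dpep1 64.6 in AFT024+KLS, and Adam10 stays at 86.4 or above in every group drawn.

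In confluent AFT024 against confluent BFC012, 1 of the 8 genes passed limma's test, beside 28.5% of all genes. Adam10 measured 10.60, 10.34 and 10.25 in AFT024, against 11.50, 11.43 and 11.32 in BFC012, without overlap. It was 1.02 lower in AFT024 (SE 0.10, 2.03-fold, adjusted p = 3.8e-10), the same direction as between AFT024-KLS and BFC012-KLS. The 95% intervals of the other differences were -0.26 to 0.15 for Fmo1, -0.35 to 0.26 for Nnmt, -0.28 to 0.27 for Tdpoz8 and -0.46 to 0.10 for Ap4e1. Those of Tmem119 (0.02 to 0.87), Dpep1 (-0.05 to 0.54) and Rhoj (0.05 to 0.46) lay mostly above 0, but the adjusted p of these genes was 0.12, 0.237 and 0.061. The median size of the difference, without its sign, was 0.21 over the 8 genes and 0.13 over all genes. Rhoj passed when replicate 1 of AFT024 (adjusted p = 0.0173) or replicate 1 of BFC012 (adjusted p = 0.00305) was left out.

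Of the related genes in the same pair, 10 of the 18 ADAM10 partners and other ADAM proteases were higher and 4 lower in AFT024. Adam8 was 2.69 higher and Adam19 1.66 higher in AFT024, where Adam10 was lower. Of the 24 adaptor genes 8 were higher and 1 lower. Of the 18 dipeptidase, glutathione and leukotriene genes 2 were higher and 5 lower, with Anpep, an aminopeptidase of the cell surface, at -1.47. Of the 16 osteoblast genes 2 were higher and 1 lower, and Col1a2, a chain of type I collagen, was 2.91 higher in AFT024. All of these passed limma's test, as did 3 higher and 6 lower of 21 nicotinamide and methyl-donor genes and 7 higher and 5 lower of 23 ADAM10 substrates, while 0 of 4 flavin monooxygenases and 0 of 6 Tdpoz and Spop genes did.

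In the other FL pair, 2012 (supportive) against AFT011 (non-supportive), 6 of the 8 genes passed, beside 27.6% of all genes. Nnmt measured 8.23, 8.13 and 8.26 in 2012, against 10.82, 10.63 and 10.87 in AFT011, and Dpep1 measured 8.05, 7.98 and 7.98 in 2012, against 6.02, 6.09 and 6.12 in AFT011. Nnmt was thus the gene with the widest gap, on the side of AFT011, and Dpep1 the next, on the side of 2012. Nnmt fell by 2.57 ± 0.15 (SE, adjusted p = 1.69e-15) and Dpep1 rose by 1.92 ± 0.14 (adjusted p = 9.8e-13) in 2012 relative to AFT011. Tmem119 was 1.29 higher in 2012 (adjusted p = 9.01e-06), Ap4e1 differed by -0.89 (adjusted p = 4.37e-06), Adam10 by -0.94 (adjusted p = 3.28e-09) and Rhoj by -0.35 (adjusted p = 0.00967). Fmo1 (0.21, adjusted p = 0.123) and Tdpoz8 (0.03, adjusted p = 0.902) did not pass. The median size of the difference was 0.92 over the 8 genes and 0.16 over all genes.

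OP9 (supportive, calvaria) against BFC (non-supportive, FL) compares lines that differ in tissue and strain as well, and 5 of the 8 genes passed, beside 34.4% of all genes. Fmo1 measured 7.57, 7.84 and 7.88 in OP9, against 5.06, 5.19 and 5.27 in BFC, the widest gap of the 8 genes. Fmo1 was 2.59 ± 0.10 higher in OP9 (SE, 6.02-fold, adjusted p = 1.81e-20). Rhoj was 1.19 higher (adjusted p = 1.28e-11) and Dpep1 1.18 higher (adjusted p = 3.16e-08) in OP9, while Adam10 (-0.98, adjusted p = 7.03e-10) and Ap4e1 (-0.67, adjusted p = 0.00018) were lower in OP9. Rhoj and Dpep1 thus stood on the OP9 side with Fmo1. Tmem119, Nnmt and Tdpoz8 did not pass.

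Adam10 was lower in the supportive line in each of the 3 pairs that include a non-supportive FL line, by 1.02, 0.94 and 0.98, and each difference passed. In the 2 pairs of supportive and less-supportive lines it differed by 0.26 in UG26.1B6 minus UG26.3B5 (adjusted p = 0.113) and by 0.07 in BMC9 minus BMC10 (adjusted p = 0.755). Within their sets the non-supportive FL lines headed the order: BFC012 averaged 11.42 ± 0.09 (SD), with UG26.1B6 next at 11.01 ± 0.09, and AFT011 averaged 11.34 ± 0.07, with AM14-1C4 next at 10.48 ± 0.06. Neither neighbour overlapped. UG26.1B6, UG26.3B5, BMC9, AFT024 and BMC10 overlapped each with the next in that order, and AM30-3F4 had the lowest mean of its set, 10.05 ± 0.10. Part of the markers of another cell type ran with Adam10: the 10 mesothelial and epithelial genes averaged 6.75 to 6.88 in AFT024 and 8.12 to 8.37 in BFC012, 6.82 to 7.11 in 2012 and 8.61 to 8.62 in AFT011, and 4.77 to 4.83 in OP9 and 5.60 to 5.68 in BFC. Of the 10 genes, 7 were lower in AFT024 than in BFC012, 7 in 2012 than in AFT011 and 6 in OP9 than in BFC, with Upk1b, Upk3b, Wt1 and Cdh1 lower in all 3. These counts go by sign alone: 2, 3 and 4 of the 10 differences were at most 0.2 in size, with medians of -1.05, -1.12 and -0.50. Other genes of the list went the other way: Msln averaged 11.05 in AFT024 and 8.75 in BFC012, and Krt19 7.53 in 2012 and 6.53 in AFT011. Their part in the result was not tested. No other gene of the 8 passed in all 3 of these pairs. Only 3 non-supportive lines, all from FL, were measured, so support and line cannot be told apart here.

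BMC9 (supportive) against BMC10 (less-supportive) had 3 of the 8 genes past the threshold, beside 15.5% of all genes. Dpep1 measured 7.82, 8.19 and 7.82 in BMC9, against 6.34, 6.28 and 5.79 in BMC10. Tmem119 measured 10.80, 10.45 and 10.98 in BMC9, against 10.00, 9.90 and 8.60 in BMC10, and Nnmt 7.92, 7.83 and 7.25 in BMC9, against 8.76, 9.02 and 8.59 in BMC10. None of these groups overlapped, and replicate 3 of BMC10 was low for Tmem119. Dpep1 was 1.81 ± 0.14 higher (SE, adjusted p = 9.4e-12), Tmem119 1.25 ± 0.21 higher (adjusted p = 3.26e-05) and Nnmt 1.12 ± 0.15 lower in BMC9 (difference -1.12, adjusted p = 8.3e-07). With the 6 arrays of the pair alone, the adjusted p of Tmem119 was 0.0808, and without replicate 3 of BMC10 its difference was 0.79. Same-numbered arrays deviated together in this pair too, which these p-values ignore. For replicate 2 the correlation was only 0.116, against up to 0.194 between unlike numbers. With the replicate number as a block in the 6 arrays, limma's adjusted p was 0.00012 for Dpep1, 0.0456 for Tmem119 and 0.000907 for Nnmt.

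UG26.1B6 (supportive) against UG26.3B5 (less-supportive) had 1 of the 8 past the threshold, beside 8.56% of all genes. Rhoj measured 10.33, 10.55 and 10.64 in UG26.1B6, against 10.05, 10.21 and 10.22 in UG26.3B5, without overlap but close. It was 0.35 ± 0.10 higher in UG26.1B6 (SE, adjusted p = 0.026). The call was lost with the 6 arrays of the pair alone (adjusted p = 0.122) and without UG26.1B6 replicate 2, UG26.1B6 replicate 3 or UG26.3B5 replicate 1 (adjusted p = 0.105, 0.136 and 0.14). Same-numbered arrays deviated together in this pair, and with the replicate number as a block 3 of the 8 passed: Rhoj (adjusted p = 0.017), Tmem119 at -0.55 (adjusted p = 0.0108) and Dpep1 at -0.30 (adjusted p = 0.0404).

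**Figure D4:**
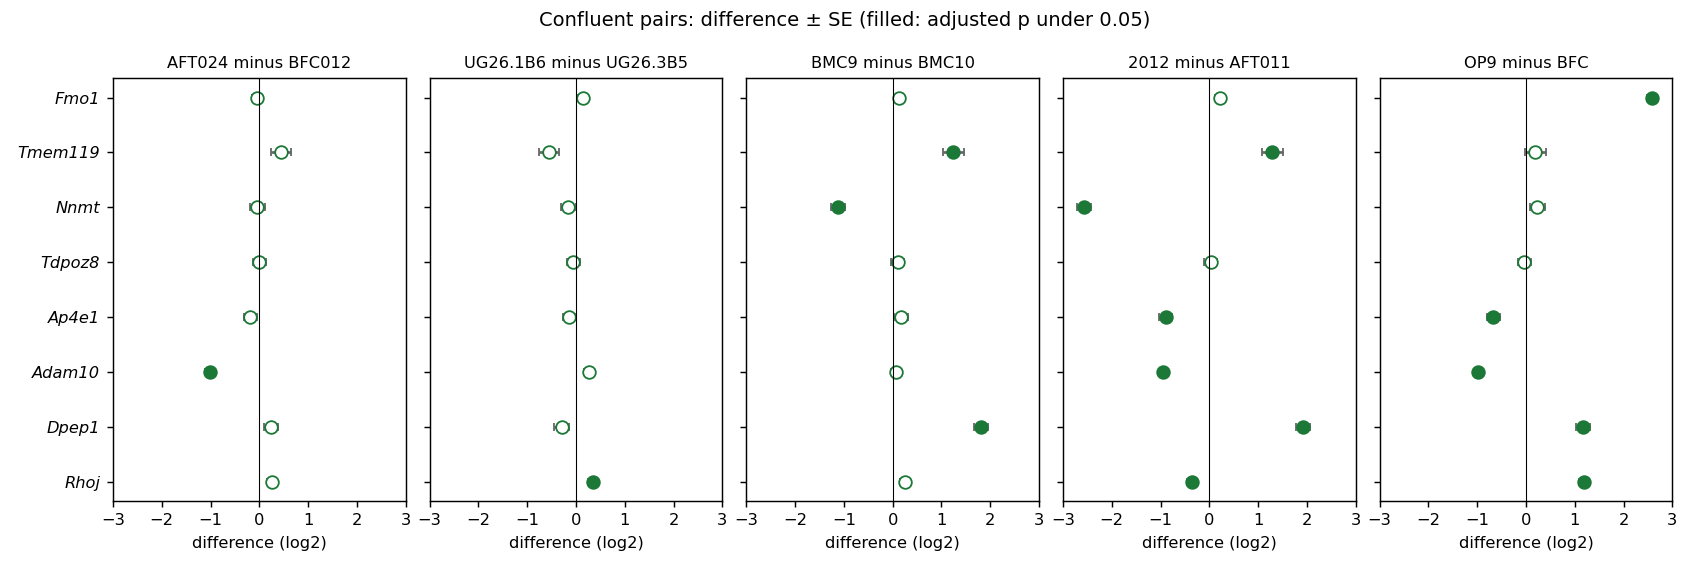
Log2 difference ± SE of the 8 genes in 5 pairs of confluent lines, first minus second line; filled points have a limma adjusted p under 0.05. Adam10 is at -1.02, -0.94 and -0.98 in the pairs of AFT024, 2012 and OP9, and Tdpoz8 passes in none of the pairs.

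Dpep1 was the gene that differed most between lines of 1 set. AM30-3F4 averaged 10.01 ± 0.11 (SD), AM14-1C4 9.13 ± 0.04 and 2012 8.001 ± 0.039, against 6.22 ± 0.10 in 14F1-1 and 6.08 ± 0.05 in AFT011, and no neighbours overlapped. In the set with AFT024 and BFC012, BMC9 at 7.94 ± 0.21 stood alone, and the other 5 lines lay between 5.79 and 6.26 with each overlapping the next. These 5 include AFT024 at 6.04 ± 0.17 and BFC012 at 5.79 ± 0.20, the lines in which Dpep1 was 1.56 and 0.36 higher with KLS cells.

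Nnmt also spread widely. BFC012 at 10.24 ± 0.24 (SD) and AFT024 at 10.20 ± 0.24 overlapped at the top of their set, above BMC10 at 8.79 ± 0.22, and BMC9 at 7.67 ± 0.36, UG26.3B5 at 7.30 ± 0.24 and UG26.1B6 at 7.14 ± 0.17 formed an overlapping low group. In the set with 2012, AFT011 at 10.77 ± 0.13 and AM14-1C4 at 10.49 ± 0.15 headed the order without overlap, and 2012, AM30-3F4 and 14F1-1 followed at 8.21, 7.88 and 7.40.

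Fmo1 had a narrow range in the set with AFT024 and BFC012, 6.13 to 6.36 over 6 line means that overlapped with their neighbours. In the set with 2012, 14F1-1 stood above the others at 7.19 ± 0.07 (SD), and the 4 other lines overlapped between 6.37 and 6.59. OP9 at 7.76 ± 0.17 lay at the 88.2nd percentile of all genes, the highest confluent position of Fmo1, below the 93.6th in BFC012+KLS. OP9 and 14F1-1 were the lines labelled with culture at 37 °C, except OP9 replicate 3, labelled 33 °C, at 7.88. The part of temperature was not tested.

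Tmem119 averaged from 9.50 ± 0.78 (SD) in BMC10 to 11.21 ± 0.08 in UG26.3B5 in the set with AFT024 and BFC012, and only UG26.3B5 stood clear of its neighbour. In the set with 2012 it ran from 8.83 ± 0.10 in AFT011 to 10.12 ± 0.16 in 2012 without overlap of neighbours. Rhoj averaged 9.69 to 10.51 in the set with AFT024 and BFC012, where all neighbours overlapped. It was high in the set with 2012, where AM14-1C4 at 11.49 ± 0.04, 14F1-1 at 11.40 ± 0.01, AM30-3F4 at 11.36 ± 0.03, AFT011 at 10.92 ± 0.01 and 2012 at 10.58 ± 0.05 did not overlap. Ap4e1 averaged 7.83 to 8.20 with all neighbours overlapping in the set with AFT024 and BFC012, and 7.52 ± 0.30 in 2012 to 8.41 ± 0.07 in AFT011 in the other set. Tdpoz8 averaged 4.45 to 4.71 over the 11 lines of these sets, at the 10.0th percentile or below, and OP9 and BFC had it at 3.14 and 3.18, with percentiles of 9.3 and 10.3.

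**Figure D5:**
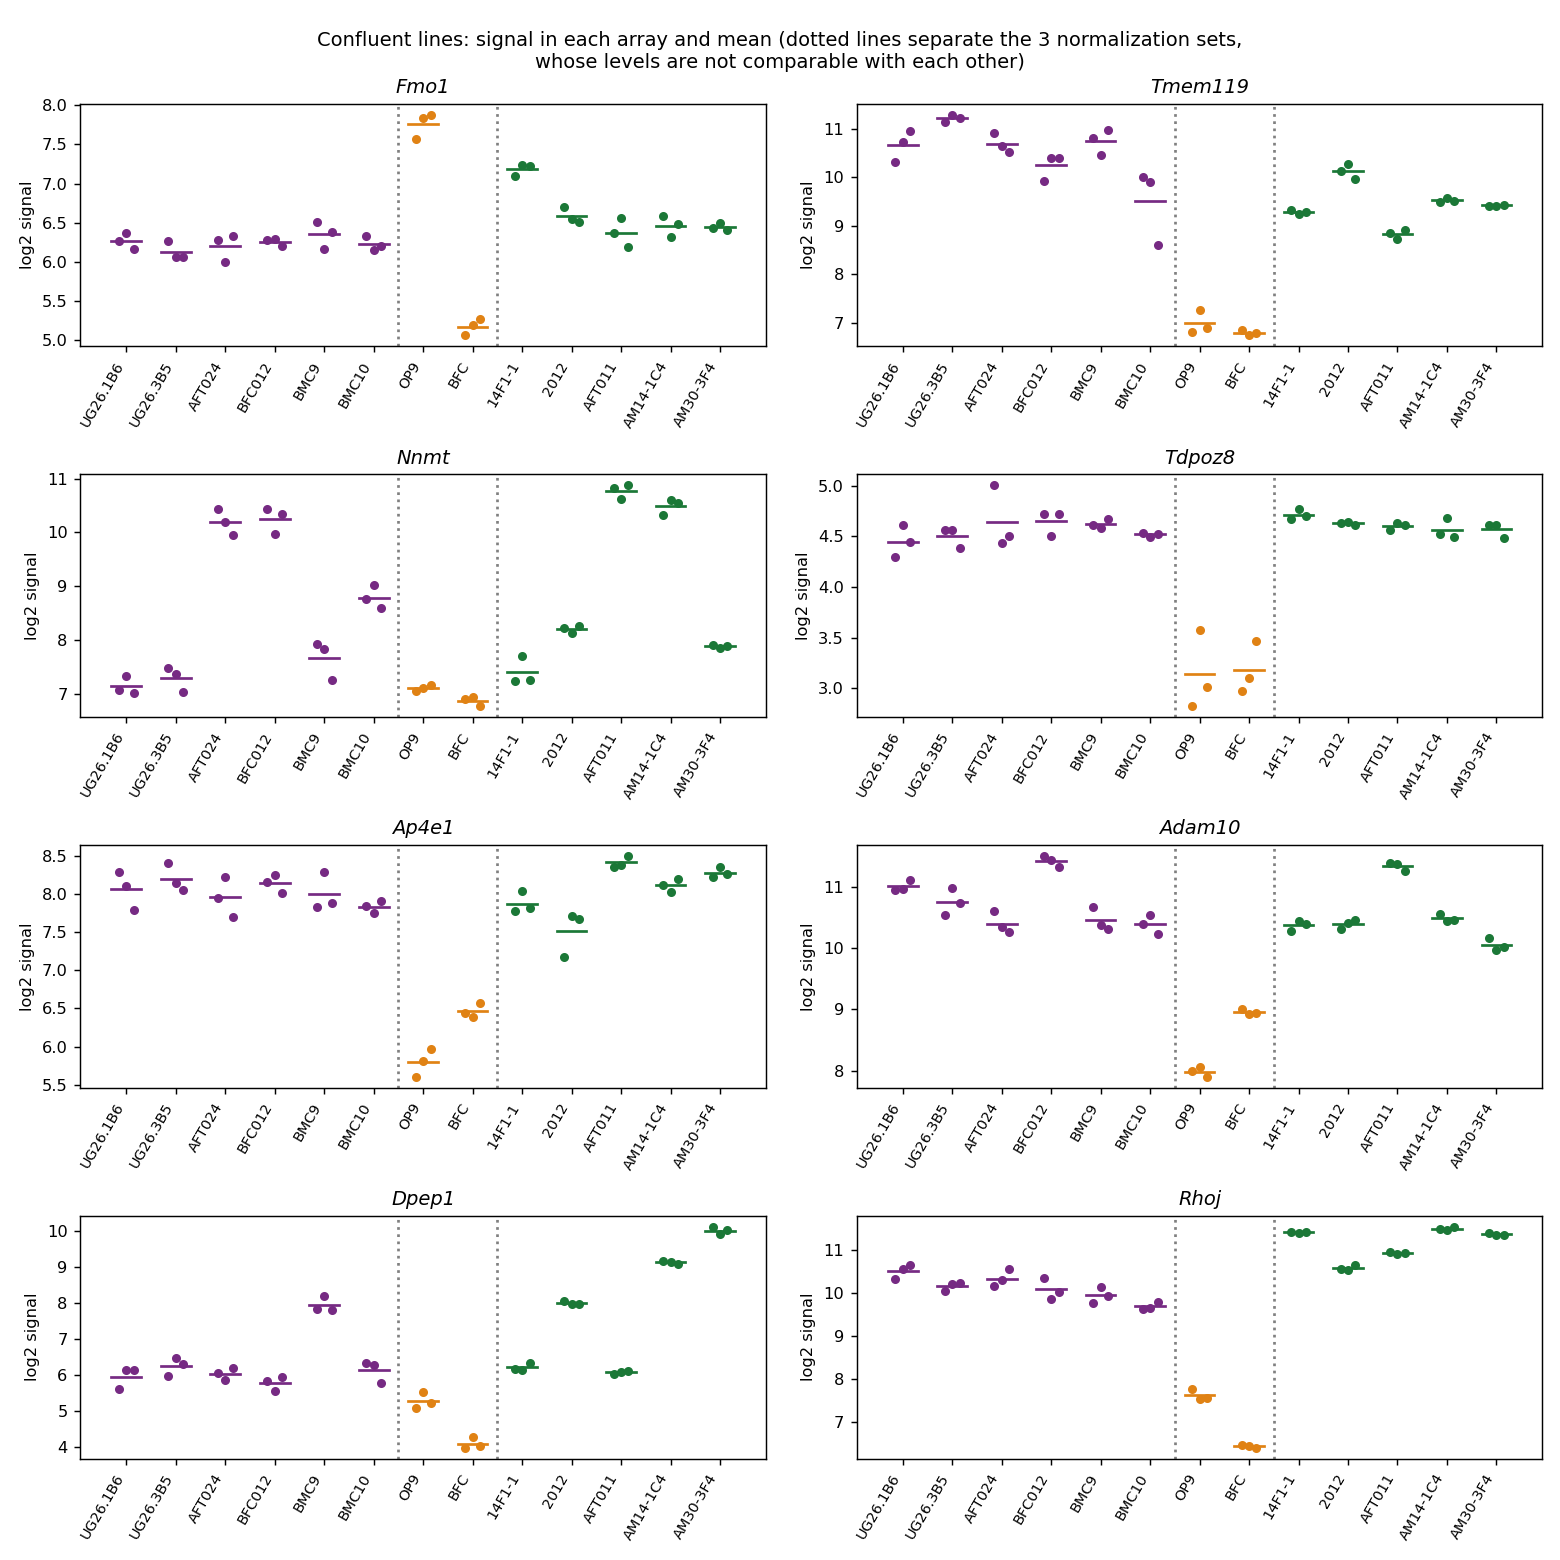
Log2 signal of the 8 genes in each array (points) and line mean (bars) of the 13 confluent lines, with dotted lines between the 3 normalization sets, whose levels are not comparable with each other. Adam10 is highest in BFC012, BFC and AFT011 within their sets, and Tdpoz8 averages 4.45 to 4.71 in the 11 lines outside the set of OP9 and BFC.

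The genes whose line means followed each of the 8 most closely were sought over the 13 confluent lines after each set was centred on its own mean, among 4614 genes with an SD of at least 0.3. Fmo1 was followed by Cdo1 (Pearson r = 0.993), a cysteine dioxygenase, and Myom1 (r = 0.98), a sarcomere protein. Fmo1 averaged 7.76 in OP9 and 5.17 in BFC, against 6.13 to 6.36 and 6.37 to 7.19 over the lines of the other sets. Its correlations, that with Rhoj below included, thus rest largely on the pair of OP9 and BFC. Nnmt was followed by Slc22a23 (r = 0.918) and Arap2 (r = 0.886), Dpep1 by Ccne1 (r = 0.89) and Itga11 (r = 0.875), and Adam10 by Chn2 (r = 0.93) and Akap5 (r = 0.912). Tmem119 was followed by Rab3il1 (r = 0.906) and Plekhg6 (r = 0.78), Rhoj by Emb (r = 0.918) and Kdm5b (r = 0.879), and Ap4e1 by Gnl2 (r = 0.841) and Aurka (r = 0.837). Tdpoz8, whose centred line means had an SD of only 0.07, had Isg20 (r = 0.909) and Terf2ip (r = 0.891). Among the 8 themselves, the highest correlations were 0.642 between Fmo1 and Rhoj and 0.585 between Ap4e1 and Adam10, and the lowest were -0.625 between Fmo1 and Ap4e1 and -0.604 between Adam10 and Dpep1. These correlations describe 13 points that share their sets and, in part, their tissue.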

How the data were processed

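RNA was measured on 51 arrays in 17 groups of 3. The deposited log2 values were made by the authors with RMA in Partek, per the submitters' processing notes; versions and settings are not given in the sources used here. RMA corrects background, makes array distributions equal and summarises probes, so levels of separately normalized arrays do not compare; the values showed 4 such sets. Of 35556 probe sets, 21789 named 1 gene, 1621 several and 12146 none, from GEO's platform annotation. Each gene took its probe set of highest mean, which left 19938 genes, of which 19856 matched RefSeq.

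limma 3.58.1 (R 4.3.3; lmFit, eBayes) was fitted to 39 confluent arrays with 13 line means, and to 12 sorted arrays, with Benjamini-Hochberg adjustment over all genes and a threshold of 0.05. It was tested on simulated data. Arrays with the same number deviated together in the AGM pair (correlations 0.535, 0.327 and 0.468, at most 0.103 between unlike numbers) and the BM pair (0.323, 0.116 and 0.435, at most 0.194). The main tests ignored this, and an alternative fit to the 6 arrays of each pair took the replicate number as a block. In the others at least 1 correlation was 0.1 or below, apart from AFT024-KLS and BFC012-KLS. These groups were not tested against each other. Both enter the difference between the lines, whose p-values are without a block unless stated. In 2012 and AFT011 the correlations of same-numbered arrays were -0.112, -0.505 and 0.395, with up to 0.553 between unlike numbers. The number of arrays limits the precision.

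The 8 genes, the lists and the tests were chosen with earlier results of these data known. Up to 4 genes per list and comparison are named, those past the threshold with the largest difference; close relatives of the 8 that did not pass, and genes that passed only without replicate 1, were named after their values were seen. A list of genes related to 1 of the 8 is not reported here. Likeness names the 2 genes of highest correlation. The alternatives were single pairs, replicate blocks, joint normalization, a filter on dim probe sets, the mean of probe sets, array weights and leaving out arrays. Figures were drawn with matplotlib 3.10.9 (Python 3.11.15).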

Additional observations from a re-analysis of the deposited data

Results flagged for a closer look

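Adam10 and Rhoj separated by KLS cells in opposite directions in the lines, with every array. The difference between the lines, AFT024 minus BFC012, was -0.999 for Adam10 and 2.37 for Rhoj. It was not tested, since the genes were chosen on it.

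Rhoj also differed in direction between pairs of confluent lines, in tests added after the data were seen. Rhoj was picked for them because its calls in these pairs had opposite directions on the same arrays. The p-values that follow are therefore no separate support. The call in UG26.1B6 minus UG26.3B5 was itself lost with the 6 arrays of the pair alone (limma adjusted p = 0.122). UG26.1B6 minus UG26.3B5 exceeded 2012 minus AFT011 by 0.697 (limma adjusted p = 0.00051, where 16.8% of all genes passed). OP9 minus BFC exceeded 2012 minus AFT011 by 1.53 (limma adjusted p = 1.51e-10, where 33.2% of all genes passed). Rhoj was higher in all 3 arrays of UG26.1B6 than in those of UG26.3B5 and higher in all 3 of OP9 than in those of BFC, and lower in all 3 of 2012 than in those of AFT011.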

How the results depend on the processing

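Of 443 alternative values of the 8 genes in confluent pairs, 415 kept their direction and their side of the threshold, 5 lost the call, 8 gained it and 15 changed sign, all 15 of small differences that did not pass. Of 477 in the sorted arrays, which were not tested, 467 kept their sign within 1 SD of replicates, 5 moved further and 5 changed sign. Those 5 were of Fmo1 and Tmem119 in AFT024, which ranged from -0.0543 to 0.514 and from -0.0657 to 0.0123. Leaving out single arrays, AFT024 minus BFC012 ranged from -0.117 to 0.044 for Fmo1, from -0.181 to 0.0757 for Nnmt and from -0.184 to 0.102 for Tdpoz8. Tdpoz8 ranged from -0.135 to 0.0261 in UG26.1B6 minus UG26.3B5 and from -0.260 to 0.116 in OP9 minus BFC, and Adam10 from -0.0415 to 0.143 in BMC9 minus BMC10. With all confluent arrays normalized together, Tdpoz8 was -0.0328 in 2012 minus AFT011. The causes were not tested.

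Leaving out single arrays, the number of the 8 genes past the threshold was 1 to 2 in AFT024 minus BFC012 and 0 to 2 in UG26.1B6 minus UG26.3B5. In UG26.1B6 minus UG26.3B5 it was 0 with the 6 arrays of the pair alone and 3 with the replicate block, where 1 passed otherwise. Of all genes, 1707 passed there, 748 with the 6 arrays alone and 1122 to 1964 without single arrays, and in BMC9 minus BMC10 3082 passed and 1296 with the 6 arrays alone. The block left the 3 calls of BMC9 minus BMC10 past the threshold.

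In the sorted arrays, 70 genes changed with KLS cells in AFT024, 0 to 1208 when arrays of 1 replicate number or single arrays were left out, and 706 with array weights. In BFC012 the counts were 176, 0 to 1576 and 1129. For the difference between lines they were 8, 0 to 589 and 196, and 0 with the replicate block, by limma in each case, with 1782 genes at an unadjusted p under 0.05 with the block and 1565 without it. The counts of 0 came without all arrays numbered 2 and, for AFT024 and the difference, also without those numbered 3; single arrays brought 0 for the difference alone. The highest counts came without those numbered 1. Tdpoz8 has no value with the filter on dim probe sets, which removed it. The dimmest gene, Tdpoz8, is the one whose values the signal over background limits most.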

Other observations

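Lcn2, a secreted protein that binds bacterial iron carriers, lay outside the 8 genes with a difference between lines of -3.03 ± 0.46 (SE), the change with KLS cells being 1.01 in AFT024 and 4.04 in BFC012. Timp4 differed with KLS cells by 0.25 in AFT024 and 3.55 in BFC012, and Slc12a2 by 0.31 in AFT024 and 2.46 in BFC012. Without replicate 1 the differences between the lines were -2.84 for Lcn2, -2.81 for Timp4 and -1.81 for Slc12a2. These genes were named after their values were seen.

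Among the sheddase partners, the difference between lines without replicate 1 passed limma's test for Timp3 (1.36, adjusted p = 0.00857), Tspan5 (1.11, adjusted p = 0.0204) and Adam12 (0.85, adjusted p = 0.0154), none of which passed with all replicates. Of all genes, 2.95% passed without replicate 1.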
